A study of Homo sapiens with 8 samples.

Results

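The genes described here are 6 cyclin-dependent kinase (CDK) inhibitor genes, CDKN1B, CDKN1C, CDKN2A, CDKN2B, CDKN2C and CDKN2D, and a pair of genes often read as markers of senescence, LMNB1 and GLB1. These 8 symbols were taken by name from a table of 46425 distinct symbols, by a rule that uses no measured value, though the choice was made with earlier results of these data known. RNA had been sequenced from derivatives of the human embryonic stem cell line H7, genotype WT, that the labels call differentiated type 2 alveolar cells, a name for the cells of the alveolus that make surfactant. They were brought to lung progenitors in 21 days, kept submerged on inserts for 3 days and held at an air-liquid interface for 7 days. Bleomycin, a drug that breaks DNA and causes lung fibrosis in animals, was given to 3 groups for 24 hours on the apical side, at 24, 240 or 480 µg/ml, and the remaining group is labelled control. Every group came from the same cell line and had 2 libraries. The labels do not state whether these were separate cultures or whether the control received vehicle. The p-values rest only on the spread between libraries of the same group, which can be technical. That spread was estimated over all 4 groups together and drawn towards that of other genes. The stated stock of bleomycin, 10 µg/ml, is lower than each dose. The series asks which fibrosis-related features such cells express after bleomycin.

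CDK inhibitors stop the cell cycle before DNA replication. The CIP/KIP proteins, p27 from CDKN1B, p57 from CDKN1C and p21 from CDKN1A, bind complexes of a cyclin with its CDK, whereas the INK4 proteins, p16 from CDKN2A, p15 from CDKN2B, p18 from CDKN2C and p19 from CDKN2D, bind CDK4 and CDK6 and keep D-type cyclins from activating them. Senescence is a lasting arrest that damaged epithelium can enter, and it is commonly read from p16, from loss of lamin B1 (LMNB1), a filament protein of the inner nuclear envelope, and from lysosomal beta-galactosidase (GLB1), the enzyme behind the senescence-associated stain. The stain reads enzyme activity, while the values here are messenger RNA.

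Total counts ran between 53431773 and 67715984 per library, and a count of 0 allows up to 3 counts, or 0.0443 to 0.0561 CPM (counts scaled to a library total of 1e+06). The libraries of 480 µg/ml lay furthest apart, with an SD of the log2 ratio between them of 0.637, against 0.502 to 0.520 in the other 3 groups. Their mitochondrial share was 1.69% in replicate 1 and 3.01% in replicate 2. Markers of the labelled cell type were mixed. SFTPC, the surfactant protein that defines type 2 cells, was at 0 in 6 libraries. It had 5 counts in 1 library of 24 µg/ml and 7 in 1 of 480 µg/ml. SFTPA1 had 2 counts in all, and SFTPA2, SFTPD, NAPSA and NKX2-1 had at most 7, 16, 27 and 87 per library. SFTPB, another surfactant protein gene, had 297 to 2137 counts per library, and LPCAT1 had 3439 to 8371. ABCA3, the lipid transporter of lamellar bodies, had 664 and 821 counts in control and 1463 and 1985 at 480 µg/ml, opposite to the sum of type 2 markers. The summed level of 13 type 2 markers, 10 of them tested, was 124 and 133 TPM (transcript levels scaled by gene length and to a common total) in control, 128 and 156 TPM at 24, 94.8 and 88.8 TPM at 240, and 79.0 and 67.9 TPM at 480 µg/ml. The summed level of 8 hepatic markers, all tested, was 59788 and 64214 TPM in control, 66093 and 46212 TPM at 24, 91876 and 82471 TPM at 240, and 84470 and 70674 TPM at 480 µg/ml. At 240 and 480 µg/ml the type 2 sum lay below control and the hepatic sum above it, while at 24 µg/ml both overlapped with control. The part of these sums in the changes below was not tested. The summed level of 8 intestinal markers, 7 of them tested, was 2583 and 2679 TPM in control and 2330 and 1757 TPM at 480 µg/ml. In RNA from a whole culture, fewer cells of a type and less RNA per cell cannot be told apart.

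At 240 and 480 µg/ml the cells had less LMNB1 and less CDKN2B, and at 480 µg/ml also less CDKN1C and more CDKN2D. CDKN1B and GLB1 were abundant and passed the test in none of the 5 comparisons made, and CDKN2A, the classical senescence gene of the group, was at or near 0 throughout. Tests were by edgeR's quasi-likelihood fit over all 8 libraries, with Benjamini-Hochberg adjustment over 18303 genes and a threshold of 0.05, and fold changes are log2 ratios ± SE. 7 of the 8 members passed the filter on low counts, CDKN2A being the exception. At 24 µg/ml 0 of the 7 were called, where 0% of all genes were called (605 had an unadjusted p under 0.05, and DESeq2 called 36). At 240 µg/ml 2 were lower and 0 higher, where 5.17% of genes were called lower and 5.16% higher. At 480 µg/ml 3 were lower and 1 higher, where 13.9% of genes were called lower and 13.9% higher, 27.8% in all. Between doses, 240 against 24 µg/ml gave the same 2 lower members, LMNB1 and CDKN2B, against 3.49% of genes lower and 3.34% higher (6.83% in all), and 480 against 240 µg/ml gave 0 members, against 0.229% lower and 0.0273% higher. In that last comparison 2055 genes had an unadjusted p under 0.05, and DESeq2 called 324, of which 1 was a member, LMNB1. The 3 dose comparisons share the control libraries.

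**Figure D1:**
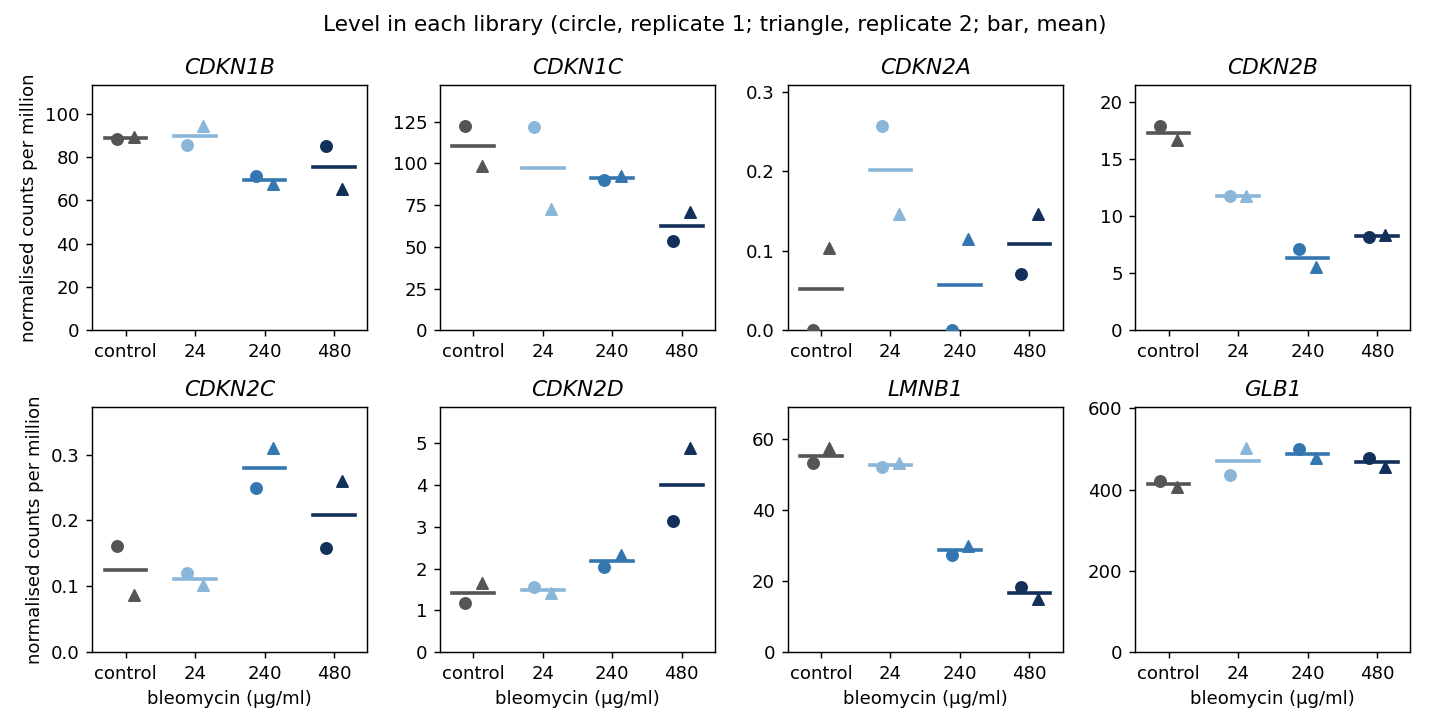
CPM of each of the 8 members (vertical axes, each on its own linear scale from 0) in control and at 24, 240 and 480 µg/ml; circles are replicate 1, triangles replicate 2 and bars the means of n = 2. LMNB1 and CDKN2B lie lower at 240 and 480 µg/ml than in control, CDKN2D lies higher at 480 µg/ml, and GLB1 stays between 407 and 503 CPM.

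The members differed widely in level. Scaled by length, GLB1 was the most abundant, with 362 to 469 TPM over the 8 libraries. CDKN1C had 71.0 to 155 TPM and CDKN1B 54.5 to 92.4 TPM, ranges that overlapped. LMNB1 had 10.5 to 46.6 TPM, below the lowest CDKN1B value in every library. CDKN2B had 3.05 to 10.4 TPM and CDKN2D 2.02 to 7.69 TPM, and these ranges overlapped too. CDKN2A, with 0 to 0.537 TPM, and CDKN2C, with 0.0859 to 0.455 TPM, were near the limit of detection.

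Among the CIP/KIP genes, CDKN1B lies at chr12:12717368-12722369 on the plus strand of GRCh38.p14 and encodes p27, which binds CDK2 with cyclin E or A in resting cells. Its levels were 88.6 and 89.3 CPM in control, 85.4 and 94.5 CPM at 24, 71.1 and 67.5 CPM at 240, and 85.3 and 65.2 CPM at 480 µg/ml. Both libraries of 240 µg/ml lay below both of control, and so did both of 480 µg/ml, though replicate 1 of that dose came close to control. The log2 fold change was -0.36 ± 0.15 at 240 µg/ml (95% interval -0.69 to -0.03, adjusted p = 0.152) and -0.24 ± 0.15 at 480 µg/ml (-0.57 to 0.09, adjusted p = 0.246), by edgeR. Most of 16 alternative fits did not call it either. For 480 µg/ml against control 15 left it uncalled and 1 called it. That 1 fit left out replicate 1 of 480 µg/ml, the library of that dose nearer to control, and gave -0.46. For 240 µg/ml 13 left it uncalled and 3 called it, both against control and against 24 µg/ml. At 240 µg/ml against control the value stayed at -0.36 and the adjusted p was 0.00692 with only the 2 groups compared, 0.00909 without replicate 1 of 480 µg/ml and 0.00987 without replicate 2. At 240 against 24 µg/ml the value was -0.38 ± 0.15 (edgeR adjusted p = 0.149), and the same 3 fits gave an adjusted p of 0.0165, 0.00875 and 0.00891.

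CDKN1C, at chr11:2883218-2885775, encodes p57, an imprinted inhibitor of embryonic tissues. It had 123 and 98.2 CPM in control, 122 and 72.7 CPM at 24, 90.1 and 92.6 CPM at 240, and 53.6 and 71.0 CPM at 480 µg/ml. The libraries of 240 and 480 µg/ml lay below both of control, while at 24 µg/ml 1 library lay within the range of control and the other below it. CDKN1C fell by 0.83 ± 0.24 on the log2 scale at 480 µg/ml (95% interval -1.37 to -0.28, edgeR adjusted p = 0.0323), and its values at 240 µg/ml (-0.27 ± 0.24, adjusted p = 0.507) and 24 µg/ml (-0.18 ± 0.24, adjusted p = 1) did not pass. This call had the largest adjusted p of the 4 at 480 µg/ml. Its adjusted p was 0.18 without control replicate 1, 0.0665 without control replicate 2, 0.075 without replicate 1 of 480 µg/ml, and 0.0577 and 0.0574 without replicate 1 and replicate 2 of 240 µg/ml.

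CDKN1A, which encodes p21 and is the main inhibitor gene induced by p53, is not among the members and is given for scale. It averaged 174 ± 21.7 CPM in control, 306 ± 3.1 CPM at 24, 707 ± 18.3 CPM at 240 and 956 ± 273 CPM at 480 µg/ml (SD, n = 2 each). Its log2 fold change was 2.03 ± 0.19 at 240 µg/ml (edgeR adjusted p = 0.0013) and 2.46 ± 0.19 at 480 µg/ml (0.000137). Summed over CDKN1A and the 6 member inhibitors, the level was 428 ± 24.1 TPM in control, 554 ± 30.2 TPM at 24, 891 ± 18.1 TPM at 240 and 1138 ± 141 TPM at 480 µg/ml. The sum of the 6 members alone went the other way, with 241 ± 8.69 TPM in control, 221 ± 35.5 TPM at 24, 180 ± 1.77 TPM at 240 and 158 ± 15.4 TPM at 480 µg/ml. Most of that sum was CDKN1B and CDKN1C, with 94.6% ± 0.402 in control and 92.2% ± 1.18 at 480 µg/ml. It therefore says little of the other members, of which CDKN2D was higher at 480 µg/ml. CDKN1A made up 43.7% ± 1.13 of inhibitor transcripts in control, 60.2% ± 4.24 at 24, 79.8% ± 0.609 at 240 and 86.0% ± 3.09 at 480 µg/ml. These sums and shares are descriptions without a test. CDKN3, a phosphatase that removes the activating phosphate from CDK2 and is itself a gene of dividing cells, fell by 0.64 ± 0.16 at 240 µg/ml (edgeR adjusted p = 0.0374) and by 1.25 ± 0.16 at 480 µg/ml (0.00101) on the log2 scale.

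**Figure D2:**
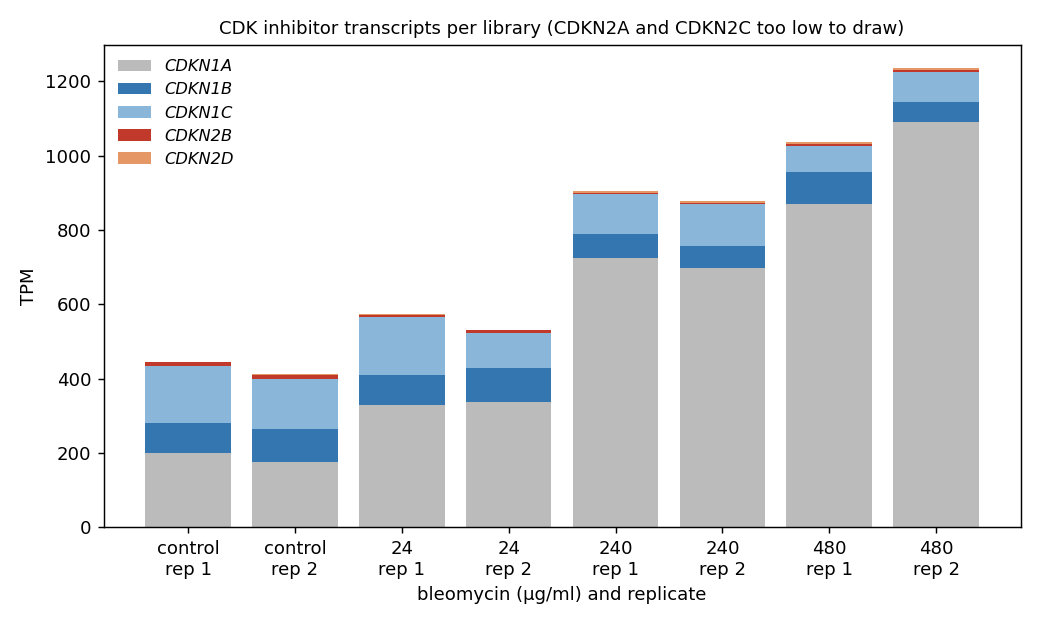
TPM of CDKN1A and of the 4 member inhibitors high enough to draw (vertical axis, from 0), stacked for each of the 8 libraries in order of dose. CDKN1A (grey) fills 43.7% of inhibitor transcripts in control and 86.0% at 480 µg/ml, as means of n = 2 libraries, while the blue segments of CDKN1B and CDKN1C make up most of the remainder.

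Of the INK4 genes, CDKN2A (chr9:21967752-21995324, minus strand) encodes p16 and, from another first exon, p14ARF, which a gene-level count cannot separate. Its counts were 0 and 6 in control, 17 and 10 at 24, 0 and 7 at 240, and 4 and 9 at 480 µg/ml. These are at most 0.257 CPM, and the gene was below the filter. The libraries of 24 µg/ml lay above both of control, and those of the other doses overlapped with control. In a fit without the filter its adjusted p ran between 0.487 and 1 over the 5 comparisons by edgeR. A change in CDKN2A was not detectable at this depth.

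CDKN2B, its neighbour at chr9:22002903-22009313 on the minus strand, encodes p15, an inhibitor best known as a target of TGF-beta. Its levels were 17.9 and 16.7 CPM in control, 11.8 and 11.8 CPM at 24, 7.09 and 5.52 CPM at 240, and 8.22 and 8.40 CPM at 480 µg/ml. Every treated library lay below both of control, and the lowest were those of 240 µg/ml. CDKN2B fell by 1.46 ± 0.15 at 240 µg/ml (95% interval -1.80 to -1.12, edgeR adjusted p = 0.0018) and by 1.06 ± 0.15 at 480 µg/ml (-1.40 to -0.72, adjusted p = 0.00147) on the log2 scale. At 24 µg/ml the value was -0.55 ± 0.15 with an unadjusted p of 0.00446, which did not pass after adjustment (0.902). At 240 against 24 µg/ml it fell by 0.91 ± 0.15 (adjusted p = 0.0162), a call that was lost without any 1 of the 4 libraries of those doses (adjusted p 0.0641 to 0.154). Between 480 and 240 µg/ml the difference was 0.40 ± 0.15 (95% interval 0.06 to 0.74, adjusted p = 0.364), with both libraries of 480 µg/ml above both of 240 µg/ml. The value at 480 µg/ml against control was -1.05 without replicate 1 of that dose and -1.07 without replicate 2.

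CDKN2B-AS1, the antisense transcript ANRIL that recruits Polycomb to the locus, covers chr9:21994791-22128142 on the opposite strand, over the whole of CDKN2B. It had 19 and 19 counts in control, 8 and 7 at 24, 3 and 8 at 240, and 15 and 5 at 480 µg/ml, far below the 338 to 998 counts of CDKN2B. Its log2 fold changes of -1.78 at 240 µg/ml (edgeR adjusted p = 0.145) and -0.97 at 480 µg/ml (0.302) did not pass. The strand used in counting is not given in the sources used here, so reads of either gene may have been assigned to the other. MTAP, the methylthioadenosine phosphorylase gene next along the chromosome (chr9:21802636-21941115), averaged 41.9 ± 0.486 CPM in control, 38.7 ± 1.01 CPM at 24, 23.2 ± 0.946 CPM at 240 and 18.8 ± 3.23 CPM at 480 µg/ml (SD, n = 2 each). It fell by 0.86 ± 0.14 at 240 µg/ml (edgeR adjusted p = 0.00952) and by 1.15 ± 0.14 at 480 µg/ml (0.000805). Here CDKN2B and MTAP were both lower, with CDKN2A between them at the detection limit. DMRTA1, also listed as a neighbour of the locus, moved little. It averaged 10.4 ± 0.446 CPM in control, 10.9 ± 1.32 CPM at 24, 9.33 ± 0.588 CPM at 240 and 9.72 ± 1.4 CPM at 480 µg/ml.

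CDKN2D, at chr19:10566460-10568979 on the minus strand, encodes p19, the INK4 protein that varies through the cell cycle. Its counts were 65 and 96 in control, 104 and 97 at 24, 106 and 143 at 240, and 179 and 302 at 480 µg/ml, which is 1.17 and 1.66, 1.57 and 1.42, 2.04 and 2.33, and 3.14 and 4.89 CPM. The libraries of 24 µg/ml lay within the range of control, and those of each higher dose lay above all at the doses below. CDKN2D was 2.84-fold higher at 480 µg/ml, a log2 fold change of 1.51 ± 0.28 (95% interval 0.87 to 2.14, edgeR adjusted p = 0.00496). Without replicate 1 of 480 µg/ml the value was 1.78 and without replicate 2 it was 1.15, and the call held in both. At 240 µg/ml it was 0.63 ± 0.28 (adjusted p = 0.193), and between 480 and 240 µg/ml 0.88 ± 0.27 (0.258), neither of which passed. The difference between 480 and 240 µg/ml was 1.15 with an adjusted p of 0.0342 without replicate 1 of 480 µg/ml.

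CDKN2C (chr1:50960745-50974634, plus strand) encodes p18. It had 9 and 5 counts in control, 8 and 7 at 24, 13 and 19 at 240, and 9 and 16 at 480 µg/ml. The 240 µg/ml libraries lay above those of control, and those of 480 µg/ml overlapped with control. Its log2 fold change at 240 µg/ml was 1.17 ± 0.60 with a 95% interval of -0.18 to 2.52 (edgeR adjusted p = 0.245), so a difference of this size could not be resolved at such counts.

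The summed level of the 4 INK4 genes was 12.9 ± 0.503 TPM in control, 10.1 ± 0.339 TPM at 24, 7.78 ± 0.15 TPM at 240 and 12.1 ± 0.664 TPM at 480 µg/ml (SD, n = 2 each). CDKN2B made up 80.0% ± 3.58 of this sum in control, 69.7% ± 4.17 at 24, 44.9% ± 8.78 at 240 and 39.6% ± 6.71 at 480 µg/ml. CDKN2D made up 18.5% ± 3.37 in control, 25.2% ± 2.29 at 24, 49.4% ± 5.06 at 240 and 57.0% ± 5.81 at 480 µg/ml. The sum at 480 µg/ml was thus near that of control, but of a different make-up.

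LMNB1 lies at chr5:126776623-126837020 on the plus strand. It had 53.2 and 57.5 CPM in control, 52.0 and 53.2 CPM at 24, 27.4 and 29.9 CPM at 240, and 18.3 and 15.1 CPM at 480 µg/ml. The libraries of 24 µg/ml reached the range of control, those of 240 µg/ml lay far below both, and those of 480 µg/ml were lower again. LMNB1 fell by 0.95 ± 0.13 at 240 µg/ml (95% interval -1.25 to -0.65, edgeR adjusted p = 0.00558) and by 1.73 ± 0.14 at 480 µg/ml (-2.04 to -1.42, adjusted p = 0.000144) on the log2 scale. In linear terms the change at 480 µg/ml was -69.8%. At 24 µg/ml its value was -0.07 ± 0.13, with an interval of -0.37 to 0.23. It fell by 0.88 ± 0.13 at 240 against 24 µg/ml (edgeR adjusted p = 0.0128). Between 480 and 240 µg/ml the value of -0.78 ± 0.13 did not pass (0.0667). Of 16 alternative fits 12 left this last difference uncalled and 4 called it. Without replicate 1 of 480 µg/ml its value was -0.93, and without replicate 2 it was -0.64.

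Against control, LMNB1 at 480 µg/ml was -1.88 without replicate 1 of that dose and -1.59 without replicate 2, and passed in both. The call at 240 µg/ml was lost without any 1 of the 4 libraries compared, control replicate 1 (adjusted p = 0.0524), control replicate 2 (0.0675), or replicate 1 (0.0631) or 2 (0.0652) of 240 µg/ml, with values between -1.01 and -0.89. Likewise the call of 240 against 24 µg/ml was lost without any 1 of those 4 libraries (adjusted p 0.075 to 0.112).

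GLB1, at chr3:32961108-33097146 on the minus strand, had 421 and 407 CPM in control, 436 and 503 CPM at 24, 499 and 477 CPM at 240, and 478 and 457 CPM at 480 µg/ml. Every treated library lay above both of control, and the pair at 24 µg/ml spanned all those of the higher doses. Its log2 fold change was 0.18 ± 0.12 at 24 µg/ml (95% interval -0.08 to 0.44), 0.24 ± 0.12 at 240 µg/ml (-0.02 to 0.50, edgeR adjusted p = 0.224) and 0.17 ± 0.12 at 480 µg/ml (-0.09 to 0.44, adjusted p = 0.289). On the TPM scale replicate 2 of 480 µg/ml, with 362 TPM, lay below both libraries of control, with 368 and 382 TPM. TMPPE, a small gene within the GLB1 locus at chr3:33090422-33097146, had 113 to 194 counts per library against 23416 to 34401 of GLB1, and did not pass at any dose.

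The ratio of GLB1 to LMNB1, both in TPM, was 8.60 ± 0.561 in control, 10.3 ± 0.807 at 24, 19.7 ± 1.81 at 240 and 31.8 ± 3.68 at 480 µg/ml (SD, n = 2 each). Since GLB1 moved little, this ratio followed LMNB1.

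**Figure D3:**
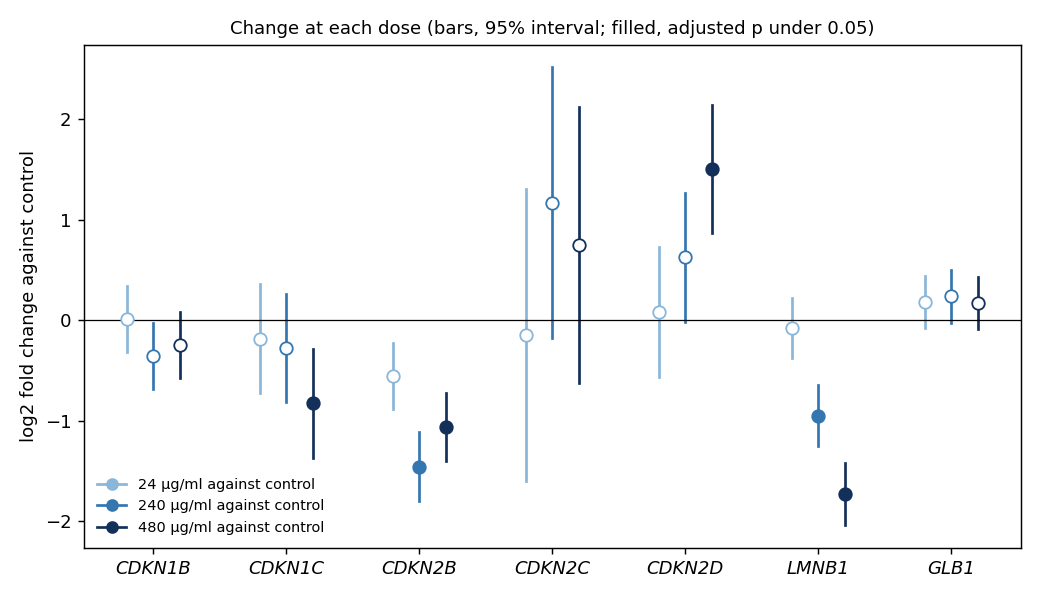
Log2 fold change against control of the 7 tested members at 24, 240 and 480 µg/ml, with 95% intervals from edgeR (n = 2 libraries a group); filled points passed an adjusted p of 0.05. LMNB1 and CDKN2B lie below 0 at both higher doses, and CDKN2D lies above 0 at 480 µg/ml with 1.51.

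Promoter stretches are shown for LMNB1 and CDKN2B, which were lower at both higher doses, and for CDKN2D, which was higher. They are from RefSeq (GRCh38.p14), which matched all 8 members by symbol. Each was cut to end before the untranslated parts of transcripts annotated by GENCODE. The stretches of CDKN2B and CDKN2D therefore stop upstream of the RefSeq gene ends. Capitals mark matches, on either strand, to motifs known from promoters of cell cycle genes: CCAAT (bound by NF-Y, ATTGG on the other strand), TTTGAA and TTTAAA (the cell cycle homology region bound by the DREAM complex, which represses such genes in resting cells) and GCGGGAA (one form of an E2F site). TTTAAA is its own reverse complement.
LMNB1, chr5:126776373-126776622, plus strand: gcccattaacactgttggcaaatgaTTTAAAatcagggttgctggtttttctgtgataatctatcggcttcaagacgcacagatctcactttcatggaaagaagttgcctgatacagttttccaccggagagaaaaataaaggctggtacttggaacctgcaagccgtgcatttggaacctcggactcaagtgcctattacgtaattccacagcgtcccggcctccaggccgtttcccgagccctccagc
CDKN2B, chr9:22009364-22009555, minus strand: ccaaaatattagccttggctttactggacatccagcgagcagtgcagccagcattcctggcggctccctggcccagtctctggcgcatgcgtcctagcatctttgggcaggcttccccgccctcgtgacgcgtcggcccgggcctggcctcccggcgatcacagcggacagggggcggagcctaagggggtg
CDKN2D, chr19:10569060-10569229, minus strand: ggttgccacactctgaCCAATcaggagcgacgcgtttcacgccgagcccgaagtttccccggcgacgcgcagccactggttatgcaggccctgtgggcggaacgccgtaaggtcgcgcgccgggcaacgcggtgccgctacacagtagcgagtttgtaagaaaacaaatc

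LMNB1 has a second annotated start further along, and the window before it holds both a TTTAAA and a CCAAT box, at -191 and -138 from that start, shown here with the bases around them.
LMNB1, chr5:126776933-126776962, plus strand: caagggccagatTTTAAAtttacaggcccg
LMNB1, chr5:126776985-126777014, plus strand: ctgcctgctccccATTGGcccatggtagtc

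Such motifs are common: among 35116 windows of 300 bases around annotated starts, 34.6% hold CCAAT, 15.2% TTTGAA, 12.2% TTTAAA and 6.55% GCGGGAA. The windows of CDKN2B and GLB1 held none of the 4. That of CDKN1B held 3 matches to CCAAT and 1 to TTTAAA. A match describes letters in these windows and no binding was measured.

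The genes most like LMNB1 in pattern were of cell division. Among 9895 genes whose average log2 CPM was 3 or more, those most like it over the 8 libraries, by the root mean square difference of centred log2 CPM, were PRC1 (0.0430), ESPL1 (0.0821) and INCENP (0.0869), which encode a spindle midzone protein, the protease separase and a chromosomal passenger protein. PRC1 averaged 16.7 ± 1.61 CPM at 480 µg/ml and 55.6 ± 0.617 CPM in control (SD, n = 2 each), close to LMNB1 with 16.7 ± 2.29 and 55.3 ± 3.06 CPM. The promoter windows of all 3 hold both CCAAT and TTTGAA, while neither window of LMNB1 holds TTTGAA. That motif lies at -20, -31 and -10 from the start in PRC1, ESPL1 and INCENP. The TTTAAA of LMNB1 lies further upstream, at -225 and -191 in its 2 windows.

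Of 14 proliferation markers, 11 were lower and 1 higher at 240 µg/ml and 12 were lower and 1 higher at 480 µg/ml. Over all genes the shares were 5.17% lower and 5.16% higher at 240 µg/ml, and 13.9% each at 480 µg/ml. Median log2 fold changes of the markers were -0.79 and -1.54, where the median of all genes tested was 0.01. MKI67, the gene of the Ki-67 antigen of dividing cells, averaged 123 ± 4.7 CPM in control, 43.8 ± 3.42 CPM at 240 and 25.2 ± 10.1 CPM at 480 µg/ml. The markers with the smallest p at 480 µg/ml were MCM7, a subunit of the replicative helicase (log2 fold change -1.86), and the mitotic kinases PLK1 (-1.84) and AURKB (-1.93). The 1 higher marker was TYMS, thymidylate synthase, at 0.71 ± 0.11 (edgeR adjusted p = 0.00699) at 240 and 0.60 ± 0.11 (0.00394) at 480 µg/ml. PCNA, the sliding clamp of DNA polymerase, named after its values were seen, was the 1 marker called in neither direction at 480 µg/ml, at 0.20 ± 0.15 (0.363). LMNB1 lay within this list: at 480 µg/ml 10 of the markers had a higher and 4 a lower log2 fold change, and at 240 µg/ml 9 and 5. Proliferation markers and LMNB1 moved together, and the part of fewer dividing cells in the LMNB1 value was not tested.

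Within the nuclear lamina the change was uneven. Of 16 other genes listed for the lamina and its partners, 7 were lower and 1 higher at 240 µg/ml (median -0.26). At 480 µg/ml 8 were lower and 2 higher (median -0.35). Among all genes 5.17% were lower and 5.16% higher at 240 µg/ml, and 13.9% each at 480 µg/ml, so the higher counts lay near that share. LMNB1 had a lower log2 fold change than each of the 16 at both doses. At 240 µg/ml it lay beside SYNE2, with -0.95 for LMNB1 and -0.94 for SYNE2. At 240 against 24 µg/ml SYNE2 fell more, with -1.20 against -0.88 for LMNB1. LMNB2, the other B-type lamin, averaged 95.8 ± 5.36 CPM in control, 65.8 ± 2.74 CPM at 240 and 49.6 ± 5.13 CPM at 480 µg/ml, and fell by 0.54 ± 0.12 at 240 (edgeR adjusted p = 0.0269) and 0.95 ± 0.12 at 480 µg/ml (0.00103). LMNA, the A-type lamin gene, averaged 99.2 ± 21.6 CPM at 480 and 119 ± 11.3 CPM in control, with a value of -0.26 ± 0.17 that did not pass (0.287). As a share of the 3 lamin genes in TPM, LMNB1 made up 23.8% ± 1.7 in control, 22.0% ± 1.37 at 24, 16.0% ± 1.67 at 240 and 11.8% ± 3.71 at 480 µg/ml. TMPO, which encodes lamina-associated polypeptides, fell by 1.14 ± 0.14 at 480 µg/ml (0.00075), and so did HMGB2, a chromatin protein listed here because it is lost in senescence rather than as part of the lamina, by 1.41 ± 0.16 (0.000603). SYNE1, a nesprin that ties the nucleus to the cytoskeleton, was higher by 1.06 ± 0.19 (0.00409), and EMD, which encodes emerin, by 0.55 ± 0.16 (0.028). SYNE2, also a nesprin gene, went the other way, with 69.4 ± 6.19 CPM in control and 29.7 ± 7.81 CPM at 480 µg/ml.

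Listed with the inhibitors were 21 genes of CDKs, cyclins and the enzymes that switch CDKs on or off, not all of which the inhibitors bind. Of these 9 were lower and 0 higher at 240 µg/ml and 13 were lower and 0 higher at 480 µg/ml (medians -0.59 and -0.98). Lower genes made up 5.17% of all genes at 240 µg/ml and 13.9% at 480 µg/ml, and higher genes 5.16% and 13.9%. CCND1, cyclin D1, averaged 391 ± 44.3 CPM in control, 228 ± 19.5 CPM at 240 and 147 ± 18.8 CPM at 480 µg/ml (SD, n = 2 each), a log2 fold change of -1.41 ± 0.14 at 480 µg/ml (edgeR adjusted p = 0.00038). CDK4, which p15 and p19 bind, was at -0.47 ± 0.17 at 480 µg/ml and did not pass (0.0727). CDK6 was at -0.65 ± 0.21 at both 240 µg/ml, which did not pass (0.0808), and 480 µg/ml, which did (0.0458). CCNE1, cyclin E1, fell by 0.83 ± 0.13 at 480 µg/ml (0.00246), while CCNE2 at -0.39 ± 0.45 did not pass (0.548). CCNB1, of mitosis, fell by 1.46 ± 0.12 (0.000147), and CDC25A, the phosphatase that activates CDK2, by 1.44 ± 0.13 (0.000256).

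For p27, much control lies in protein turnover, which these data do not measure. Of 12 genes for its turnover and transcription, 1 was higher and 2 lower at 240 µg/ml, and 2 were higher and 3 lower at 480 µg/ml (median -0.08 at both). Of all genes 5.16% were called higher and 5.17% lower at 240 µg/ml, and 13.9% in each direction at 480 µg/ml. The lower ones included CKS1B, the cofactor that lets the ubiquitin ligase SKP2 take p27, at -0.71 ± 0.15 at 240 (edgeR adjusted p = 0.0201) and -1.18 ± 0.15 at 480 µg/ml (0.000896), and its relative CKS2. SKP2 itself was at -0.36 ± 0.14 at 480 µg/ml and did not pass (0.0835). RNF123, the ligase that takes p27 in the cytoplasm, was higher by 0.62 ± 0.16 at 240 (0.0399) and 0.91 ± 0.16 at 480 µg/ml (0.00345). Leaving out either library of 480 µg/ml changed the count of this list, with no fewer genes called, so the count depends on the libraries used.

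Of 21 genes that regulate or adjoin the INK4 locus, 0 were higher and 4 lower at 240 µg/ml and 3 higher and 5 lower at 480 µg/ml (medians -0.06 and -0.02). Of all genes 5.17% were lower at 240 µg/ml, and 13.9% were higher and 13.9% lower at 480 µg/ml, so the count of higher genes lay near the background. At 480 µg/ml the count was 5 and 6 without replicate 1, and 2 and 5 without replicate 2. ETS1, a transcription factor that activates CDKN2A, averaged 3.58 ± 0.688 CPM at 480 and 12.2 CPM in control and fell by 1.63 ± 0.17 at 240 (edgeR adjusted p = 0.00177) and 1.77 ± 0.17 at 480 µg/ml (0.0003). Of the Polycomb genes, whose proteins repress the locus, CBX2 fell by 1.45 ± 0.20 at 480 µg/ml (0.00134), EZH2 fell by 0.46 ± 0.15 (0.0481), BMI1 rose by 0.73 ± 0.18 (0.016) and EZH1 rose by 0.57 ± 0.15 (0.0216). Polycomb genes thus changed in both directions.

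Most lysosomal genes listed with GLB1 were higher at 480 µg/ml, while GLB1 did not pass. Of 23 tested glycosidase and GLB1 partner genes, 10 were higher and 0 lower at 240 µg/ml (median 0.58). At 480 µg/ml 16 were higher and 1 lower (median 0.65). Higher genes made up 5.16% of all genes at 240 µg/ml and 13.9% at 480 µg/ml, and lower genes 5.17% and 13.9%. At these doses 18 and 20 of the 23 had a log2 fold change above that of GLB1. NEU1, sialidase, and CTSA, the protective protein, form a complex with beta-galactosidase in the lysosome. NEU1 averaged 314 ± 17.4 CPM in control, 514 ± 51 CPM at 240 and 652 ± 112 CPM at 480 µg/ml (SD, n = 2 each), with log2 fold changes of 0.71 ± 0.16 at 240 (edgeR adjusted p = 0.0258) and 1.06 ± 0.16 at 480 µg/ml (0.00188). CTSA averaged 166 ± 5.17 CPM in control, 281 ± 82.1 CPM at 240 and 340 ± 49.8 CPM at 480 µg/ml, and rose by 1.03 ± 0.21 at 480 µg/ml (0.00697). GLB1L, a homologue of GLB1, averaged 7.23 ± 0.181 CPM at 480 and 2.46 ± 0.182 CPM in control, a log2 fold change of 1.55 ± 0.18 (0.000665). The 1 lower gene was TFEB, a transcription factor of lysosomal genes, at -1.07 ± 0.34 (0.0428); without replicate 1 of 480 µg/ml 0 were lower, and without replicate 2 there were 2. No test of GLB1 against these genes was made.

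**Figure D4:**
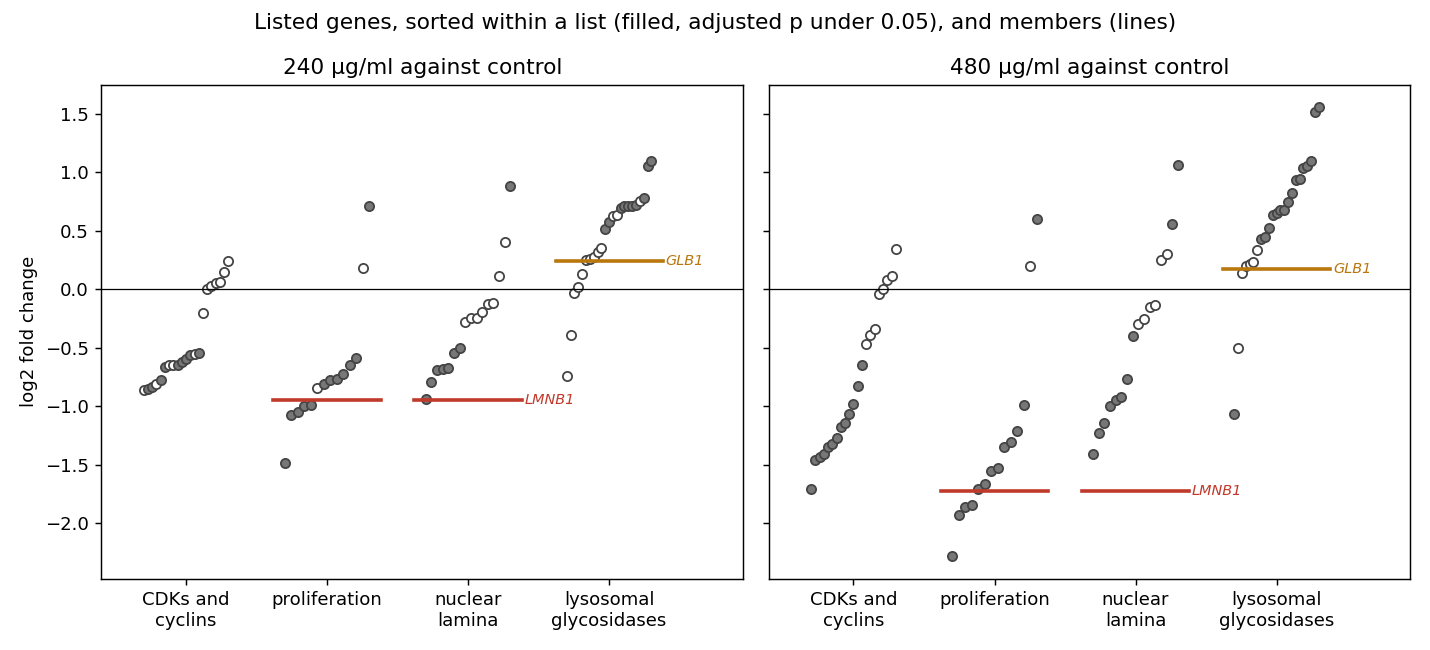
Log2 fold change against control (vertical axis) of the genes of 4 lists at 240 µg/ml (left) and 480 µg/ml (right); each point is a gene, sorted within its list and filled where the edgeR adjusted p was under 0.05, and lines mark LMNB1 and GLB1. At 480 µg/ml LMNB1 at -1.73 lies below all 16 lamina genes, and GLB1 at 0.17 lies below 20 of 23 glycosidase and partner genes.

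For the other called members, the genes of most like pattern were of varied kinds. Those nearest to CDKN2B were ANXA1 (root mean square difference 0.0934), encoding annexin A1, XRCC4 (0.132), of DNA end joining, and INSIG1 (0.177), of sterol sensing. ANXA1 averaged 18.7 ± 2.28 CPM in control, 7.69 ± 1.02 CPM at 240 and 9.15 ± 0.7 CPM at 480 µg/ml (SD, n = 2 each). Those nearest to CDKN1C were SLC44A4 (0.125), GJB1 (0.125) and SOAT2 (0.128), and those nearest to CDKN2D were PROCR (0.169), H2BC12 (0.202) and HACL1 (0.205), a looser likeness. PROCR, the endothelial protein C receptor, averaged 22.9 ± 5.36 CPM at 480 and 8.97 ± 0.554 CPM in control. Likeness here is a measure over 8 libraries of 1 experiment, and the values of a gene chosen for it restate that choice.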

How the data were processed

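The 8 libraries (TruSeq stranded mRNA, per the labels' protocols) were used as deposited: whole-number counts per gene symbol without normalization, and TPM and FPKM values, which the authors had scaled. The submitters' processing notes name Trimmomatic, HISAT2, Bowtie2 and StringTie and the builds GRCh38 and hg38; versions, annotation and counted strand are not given in the sources used here. FPKM was not used further. Of 46425 symbols, 42656 matched RefSeq.

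Counts were tested with edgeR 4.0.16 in R 4.3.3 (TMM factors, quasi-likelihood fit of all 4 groups, filterByExpr with a minimum of 10 counts and 15 in total, 18303 genes left, 4 residual and 4.98 prior degrees of freedom). CPM is counts per 1e+06 of the TMM-scaled library size. TPM served to compare levels between genes and, as log2(TPM + 1) or log2(TPM + 0.1), for alternatives by limma 3.58.1; DESeq2 1.42.0 was another. Intervals are 95% and floors cover counting error only. On simulated counts of 17923 genes at 480 µg/ml, edgeR recovered 4.48% of 1.5-fold, 50.7% of 2-fold and 95.5% of 4-fold changes, with 6 false calls.

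The members and gene lists were chosen with earlier results of these data known. Named are all members, some fixed partners, and per list, at 240 and 480 µg/ml, up to 3 called genes of smallest p in the more frequent direction and 2 in the other; not all are printed. CDKN1C has no sequence shown. Counts of the lists without each library of 480 µg/ml were added after the data were seen. Libraries of the same replicate number did not deviate together (correlations -0.0797 to 0.0449 over 18303 genes), which cannot show whether they share a culture or batch.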

Additional observations from a re-analysis of the deposited data

How the results depend on the processing

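Over 5 comparisons, 19 of 35 member log2 fold changes kept their direction and side of the threshold under all 16 alternatives or as many as gave a value. DESeq2 and the stricter filter gave none for CDKN2C. Without single libraries, the count of members called ran from 0 to 0 at 24, 1 to 3 at 240 and 3 to 4 at 480 µg/ml against control, 0 to 3 for 240 against 24 and 0 to 2 for 480 against 240 µg/ml. DESeq2 and the fit without a filter each called 1 member, LMNB1, at 480 against 240 µg/ml. The count of genes called without single libraries ran from 0 to 24, 120 to 4982 and 2248 to 7889 at the 3 doses, 0 to 4630 for 240 against 24 and 0 to 1471 for 480 against 240 µg/ml. The main counts were 0, 1892, 5085, 1250 and 47 genes. At 24 µg/ml DESeq2 gave 36, no filter 83, only the 2 groups compared 14 and limma on log2(TPM + 0.1) 1. At 240 µg/ml no filter gave 2907 and only the 2 groups 5399, and at 480 µg/ml only the 2 groups gave 2858. For 240 against 24 µg/ml DESeq2 gave 2015, no filter 2375, only the 2 groups 4341, and limma 783 and 682 with pseudocounts of 1 and 0.1. For 480 against 240 µg/ml the same settings gave 324, 465, 0, 11 and 12. With replicate number as a block, whose meaning the labels do not give, the counts were 0, 1289, 4385, 621 and 8 genes, and no member call changed. The causes of these moves were not tested.

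Values that changed sign were all uncalled. At 24 µg/ml, leaving out single libraries gave CDKN1B -0.057 to 0.089 and CDKN1C -0.60 to 0.14 (sign changed without replicate 2 of that dose), and CDKN2C -0.53 to 0.36 and CDKN2D -0.15 to 0.35 (sign changed without control replicate 1). For 240 against 24 µg/ml it gave CDKN1C -0.42 to 0.33 and GLB1 -0.045 to 0.16 (sign changed without replicate 1 of 24 µg/ml), and GLB1 was -0.055 by limma with either pseudocount. For 480 against 240 µg/ml it gave CDKN1B -0.095 to 0.30 (sign changed without replicate 1 of 480 µg/ml). Only 2 libraries a group and the distance between those of 480 µg/ml limit all tests, and low counts limit CDKN2A, CDKN2C and CDKN2B-AS1.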
